A study of Mus musculus with 670 samples.

Results

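Complement is a set of plasma and cell-surface proteins that tag particles for removal. In the classical pathway the proteases C1r and C1s, carried by C1q, cut C4 and C2, and the enzyme so formed cuts C3. Factor B forms the corresponding enzyme of the alternative pathway. Host cells are protected by inhibitors: C1 inhibitor (the product of Serping1), a serpin that inactivates C1r and C1s, CD59, which blocks pore assembly at the membrane, and clusterin, a secreted chaperone that binds the terminal complex. The liver makes most of the plasma protein, and stromal cells and fibroblasts also transcribe several of these genes.

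The genes followed were Serping1, C1s1, C1ra, C3, C4b, Cfb, Cd59a and Clu, which are 8 of 55604 gene rows in the deposited table. They were chosen by name as complement components and regulators, and the group was selected on measured values, namely the rise of Serping1 at 24 months. The 24-month level of Serping1 is therefore a description of what picked the group and supports nothing else. The cells were single mouse skeletal stem cells, sorted by flow cytometry from digested long bones of male mice and sequenced by SmartSeq2, a full-length method with 1 library per well. All ages share male sex, long bones as source, direct sorting without culture and no treatment, and no strain is given in the sources used here.

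The design has 3 ages. Postnatal day 3 was plate 9 (batch 3), with 68 of 95 wells passing the cell filter. The age of 2 months was plates 1, 3 and 4 (batches 4, 5 and 1), with 15, 70 and 69 passing cells of 96, 96 and 95 wells. The age of 24 months was plates 2, 5 and 12 (batches 3, 2 and 3), with 5 passing cells of 96 wells on each. The cell filter asked for 1000 genes or more, 50000 gene reads or more and a mitochondrially encoded share under 20%. No animal is named, so each age counts as 1 sample and no test between ages was possible. The 2-month plates share no batch with either other age. Batch and age therefore cannot be told apart at 2 months against 24 months or against postnatal day 3. Plate values describe spread that may be technical. In the order postnatal day 3, 2 months, 24 months, passing cells had medians of 1100487.5, 677688.5 and 2733865 reads and of 2234.5, 1744.5 and 1134 genes. No index pair was shared by 2 wells. The sorted cells did not look alike at all ages: the summed level of 8 chondrocyte markers was 78177 CPM (counts per 1000000 gene reads) at postnatal day 3, 56583 to 79241 CPM on the 2-month plates and 0 to 4114 CPM on the 24-month plates, where Cnmd, Col9a1, Col9a2, Matn3 and Hapln1 were at 0. The summed level of 8 marrow stromal markers ran the other way, at 452 CPM, 53.3 to 355 CPM and 4989 to 23319 CPM. At 24 months a few cells carried much of it. The marker Cxcl12 was at 70211 and 39332 CPM in cells 2 and 3 of plate 2 and at 25461 CPM in cell 1 of plate 5. The marker Ebf1 was at 16428 CPM in cell 2 of plate 12.

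A gene's level at an age is the mean of its plates' CPM. A call of higher or lower needed 10 CPM or more at the age with more of the transcript, a difference of means of 2-fold or more with 1 CPM added to both, and plates of the pair of ages whose values did not overlap. By this size rule, 1 of the 7 members tested was higher at 24 months than at 2 months (Serping1) and 0 were lower, beside 1.54% of all 8804 genes tested that were higher and 29.6% that were lower. Since that contrast picked the group, and C3 and Cfb entered the test only through their 24-month level, nothing is read from this count or from the median of the same comparison. At postnatal day 3 against 2 months, 3 of 7 were higher (C1s1, C1ra and Cfb), where 27.7% of 9656 genes were, and 1 was lower (Clu), where 9.98% were. C1ra and Cfb, below 10 CPM at 2 months, entered this test only through their postnatal day 3 level, and Cd59a only through its 2-month level. Nothing is read from these counts or from the median of this comparison. At 24 months against postnatal day 3, 2 of 8 were higher (Serping1 and Clu), where 2.59% of 9062 genes were, and 1 was lower (C1ra), where 53.6% were. This comparison also uses the 24-month Serping1 values that picked the group. C3 and Cd59a, at 0 CPM at postnatal day 3, entered it only through their 24-month level. Nothing is read from its count of higher genes or from its median either. The median log2 fold of the members tested was 4.16, 0.99 and 3.61 in these 3 comparisons, and that of all genes tested was -1.56, 0.23 and -1.94. The members' medians were the same with genes at 0 set to the level of 3 reads over the age's cells. No member at 0 lay at the middle of the order, so this setting could not move the medians and says nothing on their stability.

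**Figure D1:**
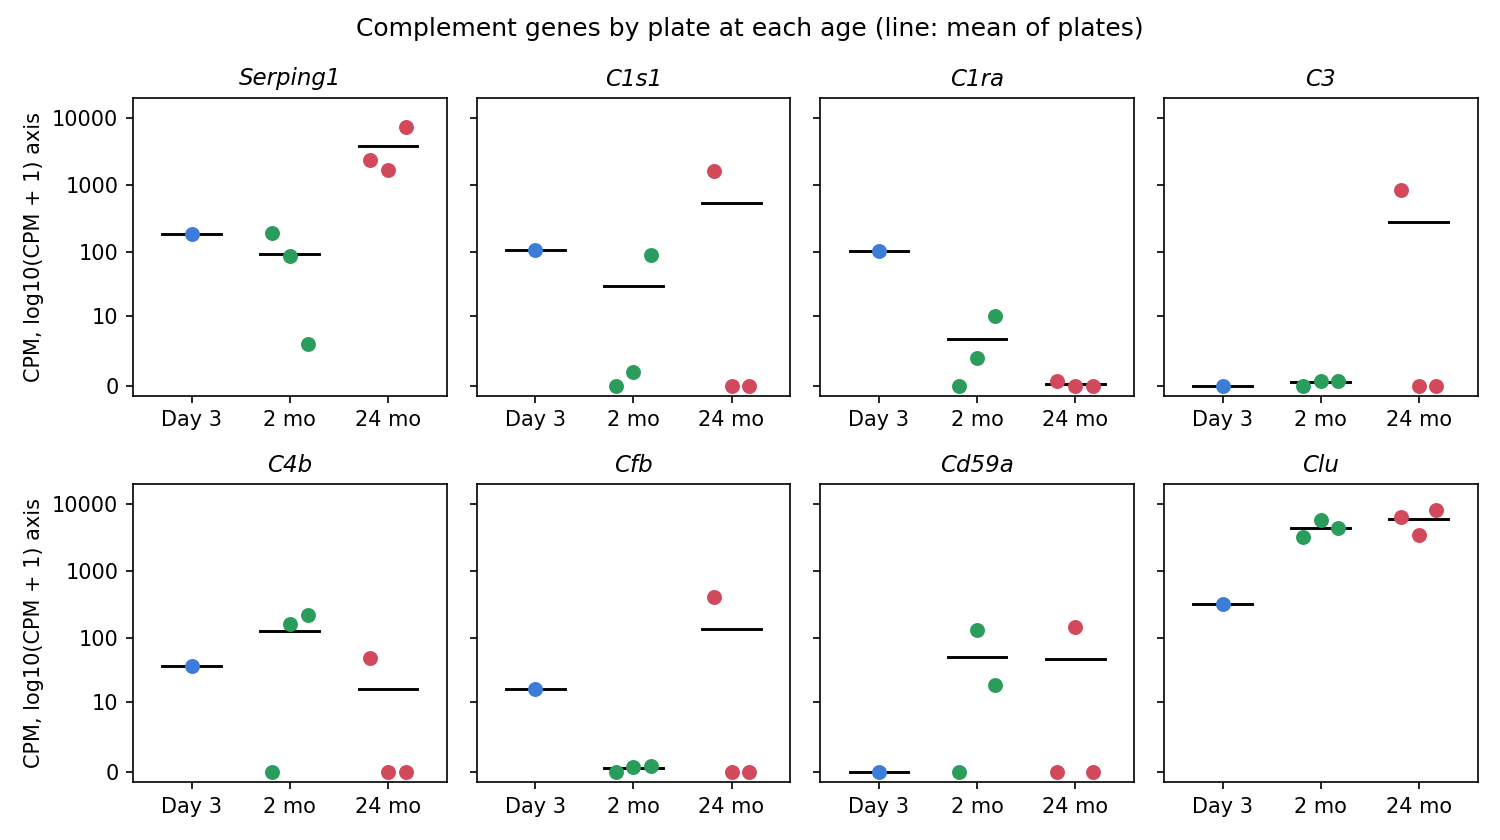
Level of each gene on each plate (points) and the mean of plates (line) at the 3 ages, in CPM on a log10(CPM + 1) axis. Serping1 was the gene whose 24-month plates, at 1694 to 7334 CPM, all lay above every plate of both other ages, while C1s1, C3, C4b and Cfb had reads on 24-month plate 2 alone.

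Serping1 was read at 184.1 CPM on the postnatal day 3 plate. Its 2-month plates 1, 3 and 4 had 188.8, 84.3 and 3.22 CPM. Its 24-month plates 2, 5 and 12 had 2351, 1694 and 7334 CPM. The lowest 24-month plate was thus above the highest of the others, and the 2-month plates spanned the postnatal day 3 value. The means were 3793 ± 3084 CPM at 24 months and 92.1 ± 93.1 CPM at 2 months (SD, n = 3 plates each), a log2 fold of 5.35. Against postnatal day 3 the log2 fold was 4.36, and it was 4.71 with only batch 3, which holds 24-month plates 2 and 12 and the postnatal day 3 plate. Postnatal day 3 and 2 months differed by 0.99 on the log2 scale with overlapping values, and no call was made. Without 2-month plate 1 the log2 fold was 2.05 and postnatal day 3 was called higher. In cells of 1000 to 1700 genes, which left 9 cells at postnatal day 3, Serping1 was at 0 CPM there and at 160.3 CPM at 2 months, a log2 fold of -7.33 and a call of lower.

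The level combined more cells with the transcript and more reads in each of them. At 24 months 10 of 15 cells had a Serping1 read, 66.7% (exact 95% binomial interval 38.4 to 88.2%), and each of the 10 had at least 578 CPM. The share with at least 10 CPM was 11.8% (8 of 68 cells; 5.22 to 21.9%) at postnatal day 3 and 8.44% (13 cells; 4.57 to 14%) at 2 months. Intervals cover counting error only. Cells with at least 10 CPM had a median of 895 CPM (277.8 to 2728) at postnatal day 3, of 142.2 CPM (13.5 to 6972) at 2 months and of 5624 CPM (578 to 16717) at 24 months. The ranges overlap: 6 cells of postnatal day 3 (698 to 2728 CPM), 1 cell of 2-month plate 1 (1095 CPM) and 2 cells of 2-month plate 3 (5092 and 6972 CPM) lay within the range of the 24-month cells. The share at 2 months depended on the cutoff, since 26 cells (16.9%) had any read, 15 (9.74%) had one after thinning to 50000 reads and 8 (5.19%) had at least 100 CPM. At postnatal day 3 and 24 months all of these cutoffs gave 8 and 10 cells.

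**Figure D2:**
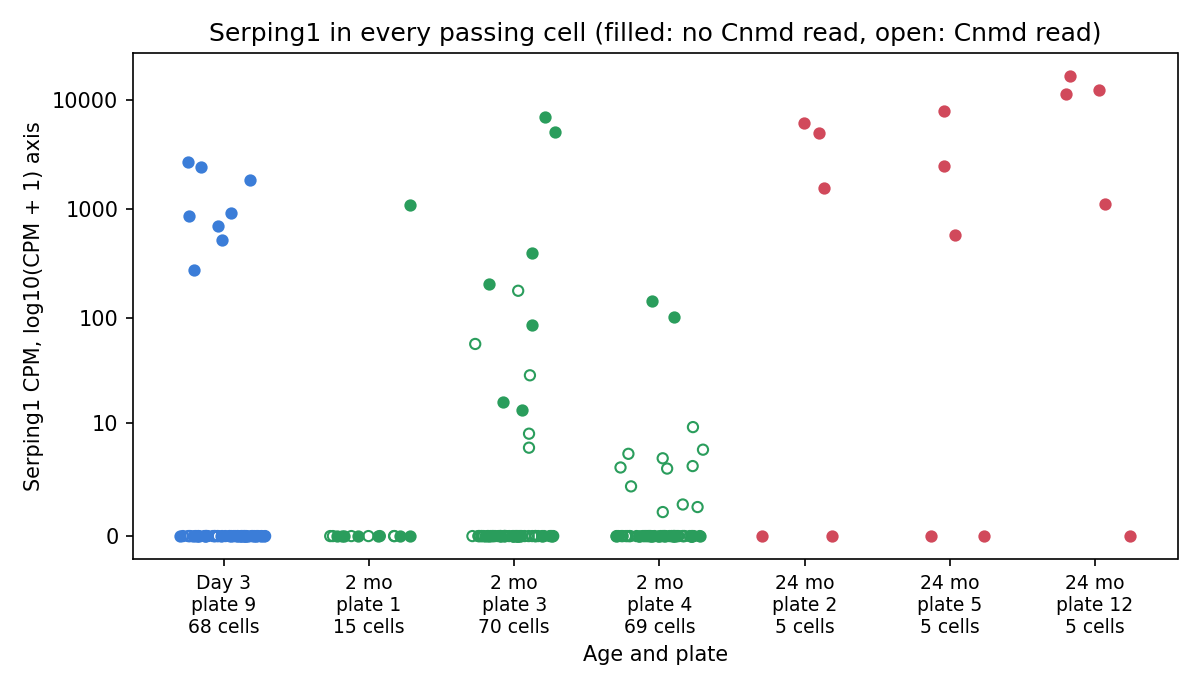
Serping1 in every passing cell by age and plate, in CPM on a log10(CPM + 1) axis. Filled points are cells with no read of the cartilage gene Cnmd and open points cells with one. At 24 months 10 of 15 points sit between 578 and 16717 CPM, and the 8 points of postnatal day 3 above 0 are all filled.

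Single cells carried some of these values. On 2-month plate 1 all 3892 Serping1 reads came from 1 of 15 cells, at 1095 CPM. With the cell holding most reads removed at each age, the means were 3250 CPM at 24 months and 29.2 CPM at 2 months, a log2 fold of 6.75. The 10 cells with Serping1 at 24 months had 1001 to 1337 genes each. When cells needed 2000 genes and 200000 reads, 1 cell of 24 months was left, it had no Serping1 read, and the log2 fold turned to -2.28 against 2 months and -7.83 against postnatal day 3. Among cells of 1000 to 1700 genes, of which there were 14 at 24 months and 69 at 2 months, the log2 fold was 4.61.

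At 10 CPM or more, Serping1 lay mainly in cells without Cnmd, which encodes chondromodulin, a cartilage matrix protein. On the postnatal day 3 plate it reached 10 CPM in 0 of 42 cells with a Cnmd read, which allows a share of up to 7.14% by the limit of 3 cells and of 8.41% by the exact interval, and in 8 of 26 without (30.8%; 14.3 to 51.8%). At 2 months it did so in 3 cells with Cnmd (2.68% of them; 0.556 to 7.63%) and in 10 of 42 without (23.8%; 12.1 to 39.5%). The 2-month cells with a Serping1 read but less than 10 CPM all had a Cnmd read, so the 2-month split depends on the cutoff. No 24-month cell had a Cnmd read. In cells without Cnmd alone, the means were 3793 CPM at 24 months, 291 CPM at 2 months (14.6 to 504 CPM by plate) and 500.4 CPM at postnatal day 3. The log2 fold of 24 months was then 3.70 against 2 months and 2.92 against postnatal day 3, a smaller difference than in all cells, and the plates did not overlap in either.

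**Figure D3:**
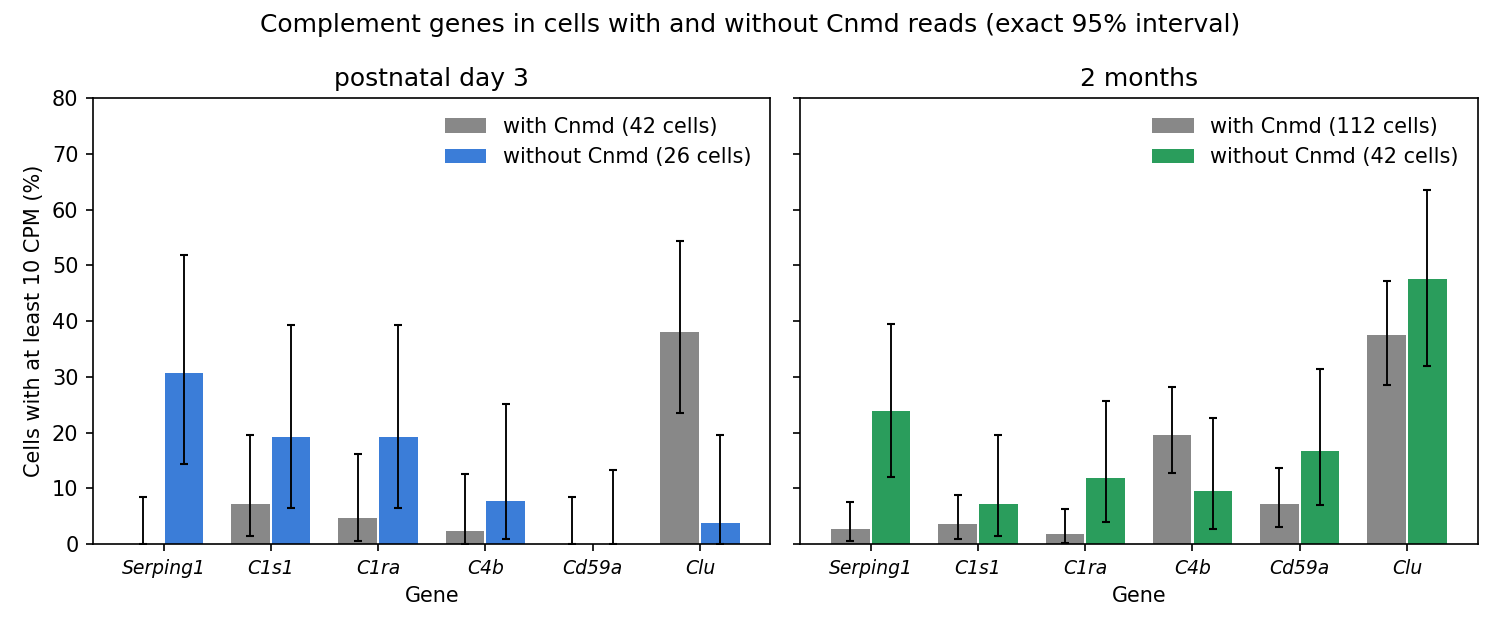
Share of cells with at least 10 CPM of a gene among cells with and without a Cnmd read, at postnatal day 3 and 2 months, with exact 95% binomial intervals. Serping1 sits at 0 of 42 against 8 of 26 cells at postnatal day 3 and at 2.68% against 23.8% at 2 months, while Clu at postnatal day 3 runs the opposite way, at 16 of 42 against 1 of 26.

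Markers of other cells were looked at in the cells with Serping1. The lists for macrophages, neutrophils, B lymphocytes, erythroid cells, megakaryocytes, endothelium and hepatocytes were at 0 for every gene in all 15 cells of 24 months. All 8 chondrocyte markers were at 0 in the 10 cells with Serping1. The marrow stromal list had a median of 6254 CPM in those 10 cells, with reads in 8 of them, and 0 CPM in the 5 cells without Serping1, with reads in 2. In postnatal day 3 cells the chondrocyte list had a median of 0 CPM in the 8 cells with Serping1 and 83409 CPM in the other 60. The osteoblast list had 47330 CPM against 6860 CPM, the fibroblast list 3509 CPM against 147.9 CPM and the marrow stromal list 930.9 CPM against 25.8 CPM. Of the 8 osteoblast markers, 7 had no read in the cells with Serping1, against 2 in the other 60. The osteoblast level in those cells with Serping1 therefore came from a single marker. In the 24-month cells with and without Serping1 the osteoblast medians were 2722 and 6.57 CPM and the fibroblast medians 75.4 and 0 CPM. Osteoblast reads were in 9 of the 10 cells with Serping1, at up to 89543 CPM. They were also in 4 of the 5 cells without it, at up to 158168 CPM. In the 2-month cells the medians were 5066 and 186.3 CPM for osteoblast, 19.3 and 0 CPM for fibroblast, 236.3 and 27.96 CPM for marrow stromal and 441 and 43673 CPM for chondrocyte markers. The part of these cell differences in the age difference of Serping1 was not tested.

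The 5 genes whose log2(CPM + 1) ran most like Serping1 over the 68 postnatal day 3 cells, of 3750 compared, were Nid1 (Pearson r 0.62), Igfbp6 (0.59), Cmtm3 (0.59), Ebf1 (0.53) and Igf1 (0.52). Over the 15 cells of 24 months, of 2289 genes, they were Islr (0.67), Gm26917 (0.61), Srsf2 (0.61), Ecm1 (0.59) and Sdc2 (0.59). These are descriptions over sparse counts from the same libraries.

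C1r and C1s, the proteases that C1 inhibitor blocks, are encoded in mice by C1ra and C1s1, which lie next to each other and point toward each other on chromosome 6 (C1ra at 124512405 to 124523443 on the plus strand, C1s1 at 124530345 to 124542359 on the minus strand, GENCODE annotation of GRCm38). C1ra was at 102.8 CPM at postnatal day 3. Its 2-month plates 1, 3 and 4 had 0, 1.61 and 10.1 CPM, and its 24-month plates 2, 5 and 12 had 0.190, 0 and 0 CPM. The newborn value was therefore above all others, with a log2 fold of 4.40 over 2 months, while the log2 fold of 24 months over postnatal day 3 was -6.61, a call of lower. That last call rests on the cell filter. The 15 passing cells of 24 months held 4 C1ra reads, but 9 of the 24-month wells that did not pass held 18484. With a limit of 500 genes (65 cells) the 24-month mean was 131.3 CPM, and the log2 fold over postnatal day 3 was 0.36. In cells of 1000 to 1700 genes the postnatal day 3 level, from 9 cells, was 0 CPM, and the log2 fold over 2 months was -3.55.

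C1s1 was at 106.7 CPM at postnatal day 3. Its 2-month plates had 0, 0.618 and 87.8 CPM, and its 24-month plates 1628, 0 and 0 CPM. Postnatal day 3 was called higher than 2 months, at a log2 fold of 1.82, with its value close above that of plate 4, and the call was lost at a 4-fold limit. The 24-month mean of 543 ± 940 CPM (SD, n = 3 plates) came from 2 cells of plate 2, and 92.6% of its reads from 1 of them. In the newborn cells C1s1 reached 10 CPM in 8 cells, C1ra in 7, and both in 2, which is 25% of the first and 28.6% of the second. Each was in 5 of 26 cells without Cnmd, against 3 of 42 (C1s1) and 2 of 42 (C1ra) with it.

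The start regions of this neighbouring pair are shown because both genes were higher at postnatal day 3 than at 2 months. Each window runs from 250 bases before the RefSeq start to 50 after it (RefSeq, GRCm38.p6), C1ra at chr6:124512371-124512670 on the plus strand and C1s1 at chr6:124542310-124542609 on the minus strand, 5′ to 3′ in the gene's direction. Capitals mark a match to TTCNNNGAA, the consensus of the STAT-bound interferon-gamma activated site.
C1ra: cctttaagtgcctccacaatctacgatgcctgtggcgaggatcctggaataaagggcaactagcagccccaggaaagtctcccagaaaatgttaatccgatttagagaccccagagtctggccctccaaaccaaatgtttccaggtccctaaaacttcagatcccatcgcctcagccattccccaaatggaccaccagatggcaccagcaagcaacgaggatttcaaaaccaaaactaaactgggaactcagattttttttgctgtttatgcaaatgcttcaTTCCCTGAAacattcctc
C1s1: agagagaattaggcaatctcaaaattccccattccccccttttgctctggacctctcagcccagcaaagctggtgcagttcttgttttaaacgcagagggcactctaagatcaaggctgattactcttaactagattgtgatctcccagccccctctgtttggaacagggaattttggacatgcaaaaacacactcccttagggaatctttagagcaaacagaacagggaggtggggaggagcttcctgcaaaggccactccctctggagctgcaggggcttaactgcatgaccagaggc
The match in C1ra, TTCCCTGAA, begins 32 bases after the RefSeq start, and TTCNNNGAA on either strand occurred in 8.30% of all 32851 promoter windows. The GENCODE start of C1ra, 124512405, lies before that RefSeq start, so by GENCODE the match lies deeper inside the gene. No match to GAAANNGAA, the core of the interferon-stimulated response element, was in either window, and 8.56% of windows hold one. Promoters were matched for 4 of the 8 members (C1ra, C1s1, C3 and Cd59a), and the Cd59a window holds a GAAANNGAA match. A match is a string of letters and not a site shown to be bound.

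C3, the central component cut by both pathways, was at 0 reads in the 68 cells of postnatal day 3, a count that leaves room for 4.41% of cells by the limit of 3 cells and 5.28% by the exact interval. It had 0, 0.177 and 0.187 CPM on the 2-month plates and 831, 0 and 0 CPM on the 24-month plates. Its 17522 reads at 24 months came from 2 cells of plate 2, at 3408 and 661 CPM, and 86.8% of them from the first. C3 had at least 10 CPM in 2 cells of 2 months (1.30%), at 47.3 and 47.4 CPM. With 2 of 3 plates at 0, no difference was called.

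Cfb, factor B of the alternative pathway, was at 16.6 CPM at postnatal day 3, at 0, 0.177 and 0.229 CPM on the 2-month plates and at 409, 0 and 0 CPM on the 24-month plates. The postnatal day 3 reads all came from 1 of 68 cells, at 1750 CPM. Postnatal day 3 was called higher than 2 months (log2 fold 3.95), and without the top cell of each age the level was 0 CPM and the log2 fold -0.13. The 24-month reads came almost wholly (99.99%) from 1 cell.

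C4b, which encodes complement C4, was at 37.3 CPM at postnatal day 3. It had 0, 161.5 and 222.6 CPM on the 2-month plates and 49.6, 0 and 0 CPM on the 24-month plates. The groups overlapped through the 2-month plate 1, which had 15 cells and no read. Without that plate C4b was called lower both at 24 months and at postnatal day 3 than at 2 months. At 2 months 26 cells had at least 10 CPM (16.9%; 11.3 to 23.8%), with a median of 570 CPM, and at 24 months 1 of 15. Unlike Serping1, C4b was seen in 22 cells with Cnmd (19.6% of them; 12.7 to 28.2%) and 4 of 42 without (9.52%; 2.66 to 22.6%) at 2 months, and these intervals overlap. Of the 7 cells with C1s1 at 2 months 6 also had C4b, which is 23.1% of the 26 C4b cells.

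C1s1, C3, C4b and Cfb met in the same cell at 24 months. Without plate 2, which holds it, C1s1, C4b and Cfb were called lower at 24 months than at postnatal day 3. Cell 3 of plate 2 had 7116 CPM of C1s1, 3408 of C3, 1931 of Cfb, 234.1 of C4b and 1578 of Serping1. Cell 2 of that plate had 730 CPM of C1s1, 661 of C3, 5027 of Serping1 and 2360 of Clu. Their level of Cxcl12, a chemokine of marrow stromal cells, was 39332 and 70211 CPM. Cell 1 of plate 5 had 25461 CPM of Cxcl12 and no read of C1s1, C3, C4b or Cfb. The other 13 cells had 1 or 2 members each at 10 CPM or more, and 12 cells in all had exactly 1. At 2 months 58 cells had exactly 1 member at 10 CPM or more and 9 had at least 3. One of these, a shallow cell of plate 3 with 63485 reads and 2781 genes, had all 8, and 4 of them (C1s1, C4b, Cfb and Cd59a) at 15.8 CPM, the worth of 1 read there.

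**Figure D4:**
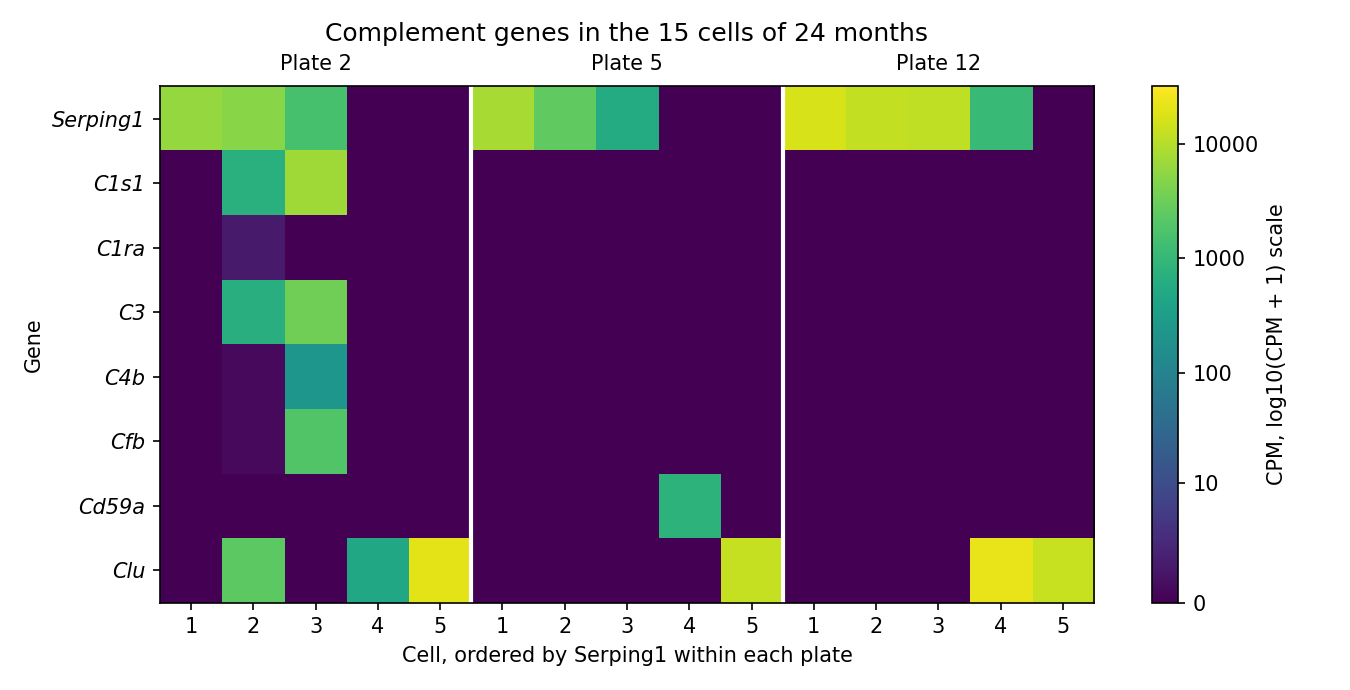
Level of the 8 genes in each of the 15 cells of 24 months, in CPM on a log10(CPM + 1) colour scale, with cells ordered by Serping1 within plates 2, 5 and 12. C1s1 and C3 appear at 10 CPM or more in cells 2 and 3 of plate 2 alone, and Cfb and C4b in cell 3 of that plate alone. Cells high in Clu mostly lack Serping1.

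Clu was the most abundant member at 2 months, also per kilobase of exon (1304 CPM per kb against 39.6 for Serping1). Its level was 318 CPM at postnatal day 3. The 2-month plates had 3207, 5821 and 4420 CPM, and the 24-month plates 6441, 3491 and 8361 CPM. The adult plates overlapped, with means of 4483 ± 1308 CPM at 2 months and 6097 ± 2453 CPM at 24 months (SD, n = 3 plates each; log2 fold 0.44), and all 6 lay above postnatal day 3. The log2 fold was -3.81 for postnatal day 3 against 2 months and 4.26 for 24 months against postnatal day 3. Without the top cell of each age the first of these calls was lost, because all Clu reads of 2-month plate 1 came from 1 cell. Single cells also carried the 24-month plates: the top cell held 92.8%, 100% and 67.9% of the Clu reads of plates 2, 5 and 12. Removing 1 cell per age left the only plate 5 cell with Clu in place, so this setting says little on the second call.

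Clu reached 10 CPM in 25% of cells at postnatal day 3 (17 of 68; 15.3 to 37%), 40.3% at 2 months (62 cells; 32.4 to 48.5%) and 40% at 24 months (6 of 15; 16.3 to 67.7%). The median of those cells was 643, 5238 and 13104 CPM. In the newborn these were mostly Cnmd cells, 16 of 42 with Cnmd (38.1%; 23.6 to 54.4%) and 1 of 26 without (3.85%; 0.0973 to 19.6%). At 2 months the shares were 37.5% (42 cells with Cnmd) and 47.6% (20 of 42 without), with overlapping intervals. At 24 months 4 of the 5 cells without Serping1 had Clu, and 2 of the 10 with Serping1.

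**Figure D5:**
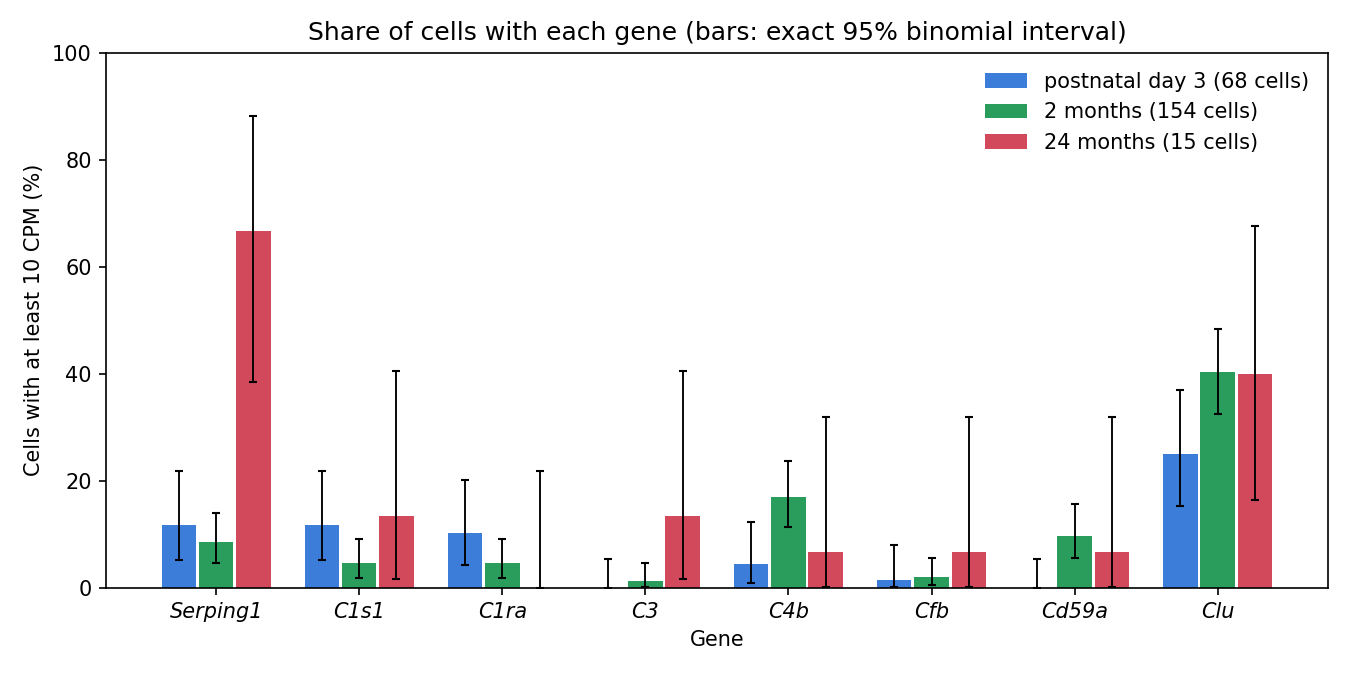
Percent of passing cells with at least 10 CPM of each gene at postnatal day 3, 2 months and 24 months, with exact 95% binomial intervals. The 24-month bar of Serping1 stands at 66.7%, and the Clu bars at 25, 40.3 and 40%. The intervals at 24 months are wide because 15 cells passed.

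Cd59a, the membrane inhibitor of pore assembly, had 0 reads at postnatal day 3. Its 2-month plates had 0, 133.2 and 19.2 CPM, and its 24-month plates 0, 144.97 and 0 CPM. The 24-month reads all came from 1 cell, at 807 CPM. The adult means of 50.8 ± 72 and 48.3 ± 83.7 CPM (SD, n = 3 plates each) did not separate. Without 2-month plate 1, Cd59a was called lower at postnatal day 3 than at 2 months. At 2 months 15 cells had at least 10 CPM (9.74%; 5.55 to 15.6%).

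Of the members, 4 have close copies in the genome, among which the counting step could have divided reads. The longest transcripts of C4b and C4a matched at 96.1% of aligned bases, those of C1ra and C1rb at 98%, C1s1 and C1s2 at 95.9%, and Cd59a and Cd59b at 89.6%. The copies held few reads: C4a had 1 in all passing cells of 2 months, C1rb 13 at postnatal day 3, C1s2 5 at 2 months and Cd59b 110 at 2 months, beside 19845, 7755, 4254 and 8464 reads of C4b, C1ra, C1s1 and Cd59a at those ages. Values of these genes are nonetheless uncertain by what was divided.

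A wider list of 56 complement genes, which includes the 8, was mostly below 10 CPM. It had reads of 42 genes in the passing cells, and 14 were at 0 (C1qa, Mbl1, Fcna, Colec11, C2, Cfd, C8a, C8b, C9, Cfi, Cd55b, Itgam, Itgax and Vsig4). C2, whose product joins C4 in the classical enzyme, and Cfd, the protease that activates factor B, were among these. At 24 against 2 months 14 genes were tested, 1 was higher (Serping1) and 1 lower (C8g), beside 1.54% and 29.6% of all genes. The median log2 fold was 2.14, from which nothing is read, since it holds Serping1 and genes that entered only through their 24-month level (C3, Cfb, C6 and Thbd). At postnatal day 3 against 2 months 12 were tested, 3 were higher and 1 lower, the same 4 genes as among the members, beside 27.7% and 9.98% of all genes, and the median was -0.89. Nothing is read from these counts or this median. C1ra and Cfb entered only through their postnatal day 3 level, and C8g and Cd59a only through their 2-month level. At 24 months against postnatal day 3 14 were tested, 3 were higher, Serping1 and Clu among them, and 1 lower (C1ra), beside 2.59% and 53.6% of all genes, and the median was 3.95. Nothing is read from this count of higher genes or this median either. They hold Serping1 and genes that entered only through their 24-month level (C3, C6, Cd59a and Thbd). None of the 9 receptor genes reached 10 CPM at any age.

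Colec12, Cr1l and Thbd were each read in at least 20% of the cells of an age. Colec12, a membrane collectin, had 284.7 CPM at postnatal day 3, 270 to 665 CPM on the 2-month plates and 1.42 to 461 CPM on the 24-month plates. Cr1l, the rodent membrane regulator Crry, had 31.5 CPM at postnatal day 3, 0.291 to 100.8 CPM at 2 months and 0, 446 and 0 CPM at 24 months. Thbd, thrombomodulin, had 0.954 CPM, 0 to 11.9 CPM and 0 to 564 CPM, with 5 of 15 cells at 24 months. None of these met the size rule. C8g, a subunit of the terminal C8 protein, had 3.89 to 68.6 CPM at 2 months, in 5 cells, and no read in the 15 cells of 24 months, a count that leaves room for a share of 20% by the limit of 3 cells and 21.8% by the exact interval. Of its 2-month reads 68.8% came from 1 cell on plate 1, the plate with the most C8g, and the call of lower was lost without that plate or that cell.

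Signals known to induce complement genes were set beside the same shares of all genes. Of 18 such genes, 15 were tested at 24 against 2 months and 0 met the size rule. At postnatal day 3 against 2 months 14 were tested, 3 were higher (Tnfrsf1a, Ifngr2 and Rela) and 3 lower (Lifr, Cebpb and Cebpd), where 27.7% and 9.98% of all genes were. At 24 months against postnatal day 3 14 were tested, 2 were higher and 2 lower, where 2.59% and 53.6% of all genes were. Lifr, the leukaemia inhibitory factor receptor, had 5825 against 67.1 CPM there, and Cebpd, a transcription factor of the acute phase, 231.3 against 33.6 CPM. Osmr and Rela were the genes that were lower. Of 16 interferon-induced genes 9 were tested at 24 against 2 months and 1 was higher, the MHC class I gene H2-D1, at 4708 against 688 CPM (log2 fold 2.77), where 1.54% of all genes were. At postnatal day 3 against 2 months 8 were tested and 3 were lower (B2m, H2-D1 and H2-K1), where 9.98% of all genes were. Against postnatal day 3, 6 were tested at 24 months and 2 were higher (B2m and H2-D1), where 2.59% of all genes were. Of 5 further proteases that C1 inhibitor blocks, 1 was tested in each comparison and 0 were called.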

How the data were processed

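The authors deposited expected counts from RSEM for each gene symbol. Per the submitters' processing notes the reads went through bcl2fastq 2.18, STAR 2.4 and RSEM 1.2.21 with GRCm38.p6; the annotation release and whether strand was used are not given in the sources used here. Of gene values above 0, 15.1% were not whole, and all were rounded. The 92 spike-in rows stayed out of totals, and 1 column matching no sample was not used. Plate 4 columns carry another prefix than the sample titles and were joined by plate, well, age and index pair. CPM is a plate's summed count over its total, in passing cells (237 of 670 wells). Detection was also computed after thinning each cell to 50000 reads. Alternatives covered cell filters, scaling (edgeR 4.0.16 TMM), the rule's limits, single plates and top cells. The rule was also run on simulated data. No result of that run is reported here, so it lends no support to the calls made. Python 3.11.15 and pandas 2.3.3 were used. The named genes are the 8 members, genes of the lists that met the rule or were read in 20% of an age's cells, near-identical copies, and the 5 most like Serping1. The members and lists were chosen with earlier results of these data known. A gene of the wider list is not reported here.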

Additional observations from a re-analysis of the deposited data

Results flagged for a closer look

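Serping1 also appeared in wells outside the comparisons. Each 24-month plate had 91 wells that did not pass the cell filter, and 20 of these wells in all held a Serping1 read (7.33%; exact 95% interval 4.53 to 11.1%), and their summed level was 1785 CPM. Such wells of 2 months numbered 81, 26 and 26 by plate, and 6 had one (4.51%), at 1.28 CPM, while of the 27 of postnatal day 3 0 did, on a median of 2506 reads per well. The wells of 2 months had a median of 33428 reads and those of 24 months of 3337. Clu was read in 13 of the 24-month wells, C4b in 12, C1ra in 9, C1s1 in 6, Cfb in 3, Cd59a in 2 and C3 in 0.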

How the results depend on the processing

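No paired analysis was possible because each age counts as 1 sample and no test was run. Leaving out 1 plate at a time gave 1 to 2 members called at 24 against 2 months, 4 to 7 at postnatal day 3 against 2 months and 3 to 6 at 24 months against postnatal day 3; for the wider list the ranges were 2 to 5, 5 to 9 and 4 to 8. The ends above the reported counts came from leaving out 2-month plate 1 (2 and 7 members, 9 of the wider list), 24-month plate 2 (6 members, 8 of the wider list) and 24-month plate 5 (5 and 7 of the wider list). With all cells of an age summed, where ranges cannot overlap by construction, 5, 7 and 7 members and 12, 10 and 13 wider genes were called. With 2000 genes and 200000 reads, which left 1 cell at 24 months, 3 and 5 members were called in the comparisons of 24 months and 8, 7 and 9 wider genes; Serping1 turned to -2.28 and -7.83 and Cfb at postnatal day 3 to -0.28. Without a cell filter 4, 7 and 7 wider genes were called, and C1ra at 24 months against postnatal day 3 turned to 0.62, as it did to 0.36 with 500 genes. In cells of 1000 to 1700 genes 1 wider gene was called at 24 against 2 months, and C1ra turned to 0.10 against postnatal day 3 and, at postnatal day 3 against 2 months, to -3.55. Cells without Cnmd gave 1 wider gene at 24 against 2 months. Without the floor 8 were called at postnatal day 3 against 2 months, and within batch 3 alone 7 at 24 months against postnatal day 3. Removing each gene's top cell, an alternative chosen after seeing the data, gave 7 there and turned Cfb at postnatal day 3 to -0.13. The causes of these changes were not tested beyond the numbers of cells named. TMM scaling took the median log2 fold of all genes tested at 24 against 2 months from -1.56 to -1.86 and changed no member's call. The 24-month values rest on 15 cells, so shares there are known only within their wide intervals.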
